A study of Homo sapiens with 4 samples.

Results

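Histone genes were followed across 4 expression arrays from melanoma cells in which the transcription factor ZIC5 had been targeted by siRNA. Members were the genes with a histone symbol in the annotation of the array, taken from probe sets that name a single gene, and there were 55 of 19775 genes in all. A375 and SK-MEL-28, established human melanoma lines, were each transfected with a negative control siRNA or with siRNA for ZIC5, and total RNA was collected after 48 h. Each of the 4 combinations was hybridised to 1 array, so no difference within a line has a replicate check. The siRNA sequences, their number and the means of transfection are not given in the sources used here, and both control groups received the negative control siRNA.

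Each nucleosome wraps DNA around a core of the histones H2A, H2B, H3 and H4, and the linker histone H1 binds where the DNA enters and leaves. Most histone genes lie in clusters and are replication-dependent: they are transcribed in S phase, when new DNA has to be packed, and their mRNAs end in a stem-loop in place of a poly(A) tail. Variant histones such as H2A.Z, H3.3 and the linker H1-10 come from separate genes with polyadenylated mRNAs and are made throughout the cell cycle, and the damage-signalling variant H2AX has mRNAs of both kinds. Affymetrix cRNA labelling usually starts from an oligo(dT) primer, which favours polyadenylated RNA, but the primer used here is not named in the labels. The replication-dependent values below are therefore levels of whatever form of these mRNAs was labelled, and the part of the labelling in any result was not tested.

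Of the 55 genes, 44 were replication-dependent and 7 were variants, and the other 4 were 3 pseudogenes and the antisense RNA H1-10-AS1, which the symbol rule also takes in. Each gene was read from its probe set with the highest mean, and 27 reached a mean of 5 on the log2 scale (intensity 32), the minimum used here: 18 replication-dependent genes, all 7 variants and the pseudogenes H1-9P and H2AC5P. Of 42 members on chromosome 6, which carries the main histone cluster, 16 were measured at that minimum. Just inside it were H1-3 at a mean log2 intensity of 5.0, H1-6 at 5.08 and H3-4 at 5.12, and just outside it were H1-10-AS1 at 4.73, H4C13 at 4.66 and H4C5 at 4.57. Members of a histone family are close in sequence, and 8 of the 18 replication-dependent genes were read from probe sets of a kind (7 marked _x_at and 1 marked _s_at) that can bind transcripts of related genes. The variants H1-10, H2AX, H2AZ1, H2AZ2 and H3-3A were also read from _s_at probe sets. Values from such probe sets may be shared between copies and are not independent of each other.

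The promoters of 5 genes that the results turn on are printed here because the differences described below are largest, or depend most on the probe set, in these genes. Each line gives 140 bases upstream of the RefSeq start site, 5′ to 3′, from RefSeq on GRCh38.p14. Capitals mark the CCAAT box, the TATA box TATAAA and the octamer ATTTGCAT, on either strand, the octamer being the site of the POU factor that H2B promoters are known for.
H2BC12: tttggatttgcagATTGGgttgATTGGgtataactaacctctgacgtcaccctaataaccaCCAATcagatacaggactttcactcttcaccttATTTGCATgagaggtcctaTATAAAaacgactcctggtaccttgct
H2BC9: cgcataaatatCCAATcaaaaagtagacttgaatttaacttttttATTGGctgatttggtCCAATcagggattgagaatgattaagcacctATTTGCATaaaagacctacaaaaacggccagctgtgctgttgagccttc
H2AC6: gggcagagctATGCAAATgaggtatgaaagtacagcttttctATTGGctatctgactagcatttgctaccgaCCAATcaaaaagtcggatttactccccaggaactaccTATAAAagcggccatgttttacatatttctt
H2AX: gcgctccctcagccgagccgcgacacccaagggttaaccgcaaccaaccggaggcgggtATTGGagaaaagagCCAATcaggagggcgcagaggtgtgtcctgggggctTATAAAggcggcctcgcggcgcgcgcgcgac
H2AZ2: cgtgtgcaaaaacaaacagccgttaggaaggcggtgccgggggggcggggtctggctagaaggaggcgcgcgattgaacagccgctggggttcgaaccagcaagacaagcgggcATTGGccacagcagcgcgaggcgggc

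The H2BC12 window is chr6:27146859-27146998 on the minus strand, H2BC9 chr6:26251474-26251613 and H2AC6 chr6:26124032-26124171 on the plus strand, H2AX chr11:119095466-119095605 and H2AZ2 chr7:44848088-44848227 on the minus strand. In a wider window of 250 upstream bases, both strands searched, 24 of the 25 measured histone mRNAs had a promoter in the table. A CCAAT box was found in 22 of these 24 and in 33.0% of the 27305 promoters of the table, and TATAAA in 13 of 24 and in 11.1%. The octamer was found in 6 of the 24, against 1.66% of the table: in 3 of 4 H2A and 3 of 4 H2B genes, and in none of the 7 variants. H2BC12 carried it 46 bases and H2BC9 49 bases upstream of the start, both with a CCAAT box further upstream, and H2AC6 carried it on the reverse strand 130 bases upstream. The printed H2AX window had the CCAAT pair and the TATA box of a cluster gene but no octamer, and the printed H2AZ2 window had a single CCAAT box. In the wider window H2AX and H2AZ2 each had 4 CCAAT boxes. A match is a description of letters and not a measured binding site.

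ZIC5 itself was read near the low end of the scale, at 16.8 (control siRNA) and 14.1 (ZIC5 siRNA) in A375 and at 21.4 and 15.5 in SK-MEL-28, so these arrays give no check of the knockdown. Median intensities of the 4 arrays lay between 38.4 and 39.4. Of 9 melanocyte lineage markers measured, SOX10 and CSPG4 had intensities above 500 on every array, while MLANA and TYRP1 lay between 7.51 and 17.0 on the A375 arrays and from 1121 to 18212 on those of SK-MEL-28. Of 13 epithelial, immune, endothelial and fibroblast markers with a value, 7 reached the level minimum, and their summed intensity was 786 to 898 on the A375 arrays and 585 to 598 on those of SK-MEL-28. Among the measured ones CD3E read 54.0 to 59.8, PECAM1 56.9 to 88.3, VWF 35.1 to 47.3, KRT5 34.8 to 41.4, DCN 46.3 to 54.5 and COL1A1 152 to 190 over the arrays, while PTPRC, CDH5 and EPCAM were at 13.8 or lower on each. CDH1 read 6.04 or lower in A375 against 56.0 to 59.2 in SK-MEL-28, and the keratin KRT14 read 320 to 358 in A375 against 32.1 to 42.5 in the other line.

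The variants covered the widest range of levels. H2AZ1, one of the pair of H2A.Z genes, had the highest mean log2 intensity of all members, 13.20, followed by H2AZ2 at 10.68, H2AX at 9.80 and H1-10 at 9.63, while the germ cell linkers H1-8 and H1-7 lay at 6.19 and 5.84 and the only H3-3A probe set that names 1 gene at 5.73. Among the 18 replication-dependent genes the median was 6.23, and the highest was H2BC12, an H2B gene of the chromosome 6 cluster, at 9.50. These are probe set intensities, which depend on the probes, so they do not rank the genes by transcript abundance. The 28 members under the minimum had siRNA differences between -0.57 and 0.70 in A375 and between -0.51 and 0.44 in SK-MEL-28, and none reached 2-fold, although a second, dimmer probe set of H4C8 differed by 1.02 in A375.

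**Figure D1:**
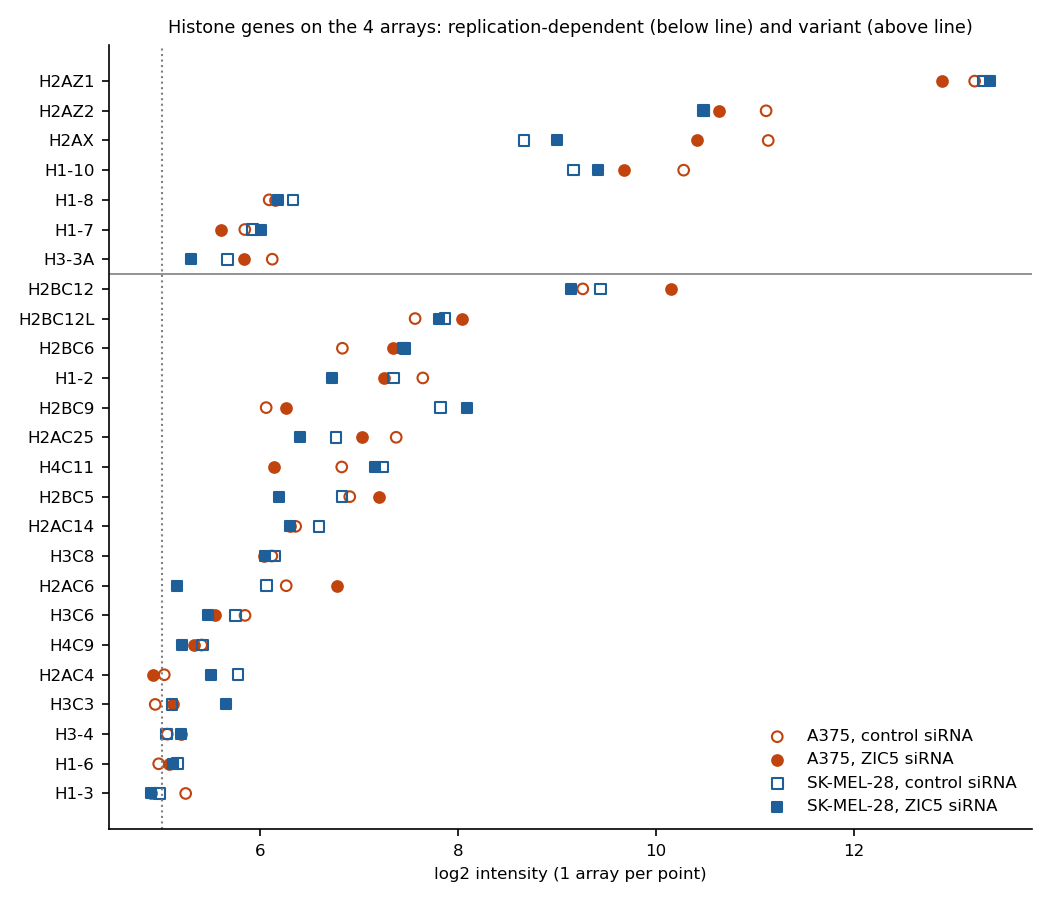
Log2 intensity (x axis) of the 25 measured histone mRNAs (rows) on each of the 4 arrays, with open symbols for control siRNA, filled symbols for ZIC5 siRNA, circles for A375 and squares for SK-MEL-28; the dotted line is the level minimum of 5. H2AZ1 lies highest, H2AX and H2BC9 have the lines apart, and in A375 the ZIC5 siRNA array is above the control array for H2BC12 and below it for H2AX, H2AZ2 and H1-10.

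The first question was how histone transcripts differed in A375 when ZIC5 was targeted. A siRNA difference is the log2 intensity on the ZIC5 siRNA array less that on the control array. Of 27 measured members, 0 were at least 2-fold higher or lower, where 8.95% of all 13794 genes were past that size in A375 (3.89% higher and 5.05% lower). The median was -0.12 over these members and -0.01 over all genes, and 10 of the 27 were above 0, against 48.5% of all genes. The highest difference was that of the H2B gene H2BC12, and the lowest were those of the variant H2AX, the H4 gene H4C11 and the variant H1-10.

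Among the variants, H2AX, whose phosphorylated protein marks DNA breaks, had an intensity of 2246 on the A375 control array and of 1364 after ZIC5 siRNA, a difference of -0.72 or 1.65-fold lower. H1-10, a replacement linker, went from 1242 to 817, a difference of -0.60. H2AZ1 differed by -0.33, from 9538 to 7589. The A375 control array was above the ZIC5 siRNA array for each of these, and in all, 6 of the 7 variants were below 0, with H1-8 (0.06) the exception, and H1-7 at -0.24. The 5 variants without the germ cell genes H1-7 and H1-8 lay between -0.72 and -0.29, median -0.47.

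H2AZ2, the second H2A.Z gene, depended on the probe set. Its highest probe set went from 2212 to 1594 in A375, a difference of -0.47, but the other 3 probe sets differed by -1.72, -0.97 and -1.40. All 4 were lower with ZIC5 siRNA, and 2 of them were past 2-fold. The mean over the probe sets was past 2-fold, so the count of members at that size was 1 when probe sets were averaged and also 1 when _x_at and _s_at probe sets were left out. For H2AX, the pair of brighter probe sets differed by -0.72 and -0.82 and the pair of dimmer ones, at mean log2 intensities of 5.46 and 5.03, by 0.01 and 0.06. The H2AZ1 probe sets gave -0.33 and -0.35.

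**Figure D2:**
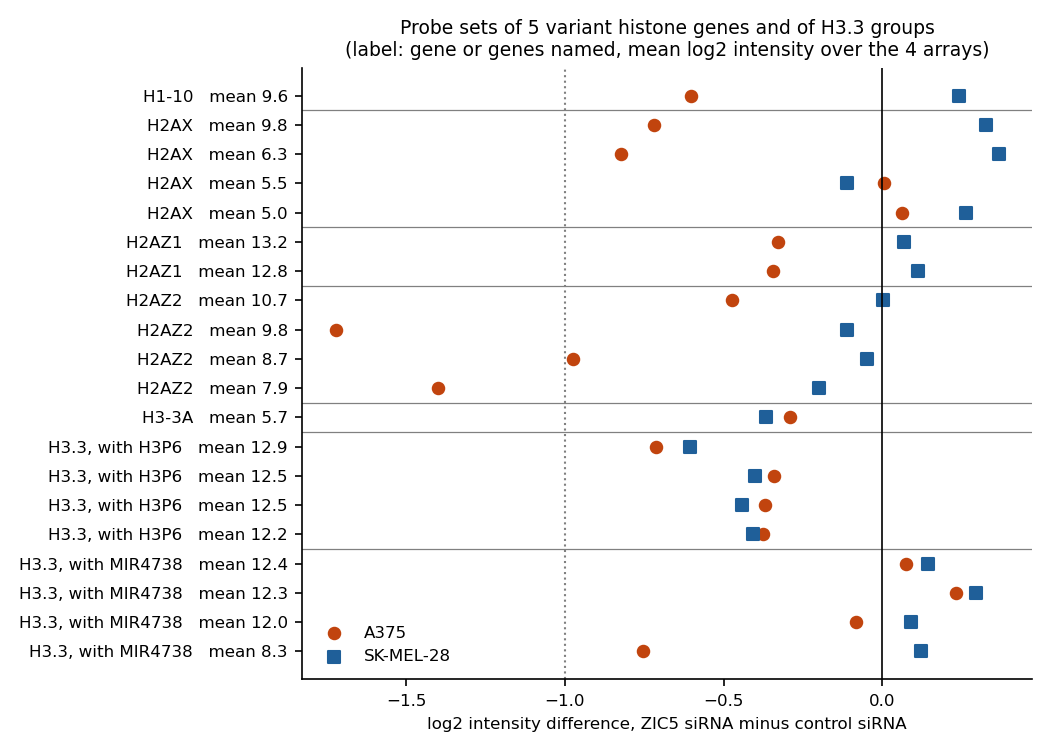
Log2 difference, ZIC5 siRNA minus control siRNA (x axis), of each probe set (rows) for 5 variant histone genes and for probe sets that name H3.3 genes together, with circles for A375 and squares for SK-MEL-28 and the mean log2 intensity in the row label. The 4 H2AZ2 probe sets are spread from -1.72 to -0.47 in A375 and from -0.20 to 0.00 in SK-MEL-28, and the 4 H3.3 probe sets that also name H3P6 are below 0 in both lines.

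H3.3, the replacement H3 made from H3-3A and H3-3B, was covered by 1 dim probe set of H3-3A alone and by 8 bright ones that name several genes and are outside the rule for members. The H3-3A probe set went from 69.5 to 56.9 in A375 (-0.29) and from 50.8 to 39.4 in SK-MEL-28 (-0.37). The 4 probe sets that name H3-3A, H3-3B and the pseudogene H3P6 were lower with ZIC5 siRNA in both lines, by differences of -0.71 to -0.34 in A375 and -0.61 to -0.40 in SK-MEL-28. The brightest of them went from 9635 to 5884 in A375 and from 9047 to 5940 in SK-MEL-28. The 4 that name H3-3A, H3-3B and MIR4738 lay between -0.75 and 0.23 in A375 and between 0.09 and 0.30 in SK-MEL-28. So the single-gene probe set and the first group lay on the same side in both lines, and the second group did not share that side in SK-MEL-28.

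On the replication-dependent side of A375, the H2B genes at the level minimum stood on 1 side of 0. H2BC12 went from 612 to 1137, a difference of 0.89 or 1.86-fold higher, the largest of any member, and its probe set is not of the shared kinds. H2BC6 went from 114 to 162 (0.51), H2BC12L, a copy related to H2BC12, from 189 to 263 (0.47), H2BC5 from 120 to 147 (0.29) and H2BC9 from 66.6 to 76.7 (0.20). All 5 measured H2B genes were thus above 0, median 0.47, also under each scaling tried, but those of the 4 genes other than H2BC12 were read from probe sets of the _x_at kind. Both probe sets at the minimum that name several H2B genes were also higher, by 0.49 and 0.62. The H2B genes under the minimum lay on both sides of 0 in A375, from -0.57 to 0.23.

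Other families of cluster genes in A375 did not share that side. H2AC6, an H2A gene, went from 76.6 to 109.6 (0.52), but the other 3 H2A genes lay between -0.34 and -0.06. The linker genes H1-2 (200 to 152, -0.40) and H1-3 (37.9 to 29.7, -0.35) were lower. H4C11, an H4 gene, went from 113 to 70.6, a difference of -0.68, the lowest of the class, and H4C9 differed by -0.08. The 4 H3 genes, all at intensities of 70.5 or lower, ranged from H3C6 (57.4 to 46.5, -0.31) and H3C8 (-0.07) to H3-4 (0.14) and H3C3 (0.18). Over the 18 replication-dependent genes 9 were above and 9 below 0, with a median of 0.02.

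In SK-MEL-28 the same contrast also gave 0 of 27 members at 2-fold, where 2.89% of all genes were past that size (0.776% higher and 2.12% lower). The cluster genes were the lower side here. H2AC6 went from 66.8 with control siRNA to 35.7 with ZIC5 siRNA, a difference of -0.90 or 1.87-fold lower, and had the largest difference of any member in that line. H2BC5 went from 113 to 73.0 (-0.63), but its other probe set only from 118 to 109 (-0.12), and H1-2 went from 162 to 106 (-0.62). The other H2B genes lay between -0.30 (H2BC12, from 695 to 563) and 0.27 (H2BC9, from 226 to 272). The H2A genes H2AC25, H2AC14 and H2AC4 differed by -0.37, -0.29 and -0.27, and the H3 gene H3C6 by -0.27. The second probe set of H2AC25, near the level minimum at a mean log2 of 5.04, differed by -0.03. In all, 15 of 18 replication-dependent genes were below 0, median -0.15, against 50.2% of all genes above 0. The 3 above 0 were H2BC9, H3-4 (0.15) and H3C3, which went from 34.4 to 50.4 (0.55).

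The variants lay between -0.37 and 0.33 in SK-MEL-28, on both sides of 0. H2AX went from 406 to 509 (0.33) and H1-10 from 574 to 679 (0.24), both higher with ZIC5 siRNA. H2AZ1 went from 10141 to 10625 (0.07), and H2AZ2 had 1427 and 1430, with all of its 4 probe sets between -0.20 and 0.00. H1-7 lay at 0.08 and H1-8 at -0.16. The lowest variant was H3-3A at -0.37, and the median over the 7 was 0.07. Without _x_at and _s_at probe sets 4 variants were left, and their median was -0.02.

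**Figure D3:**
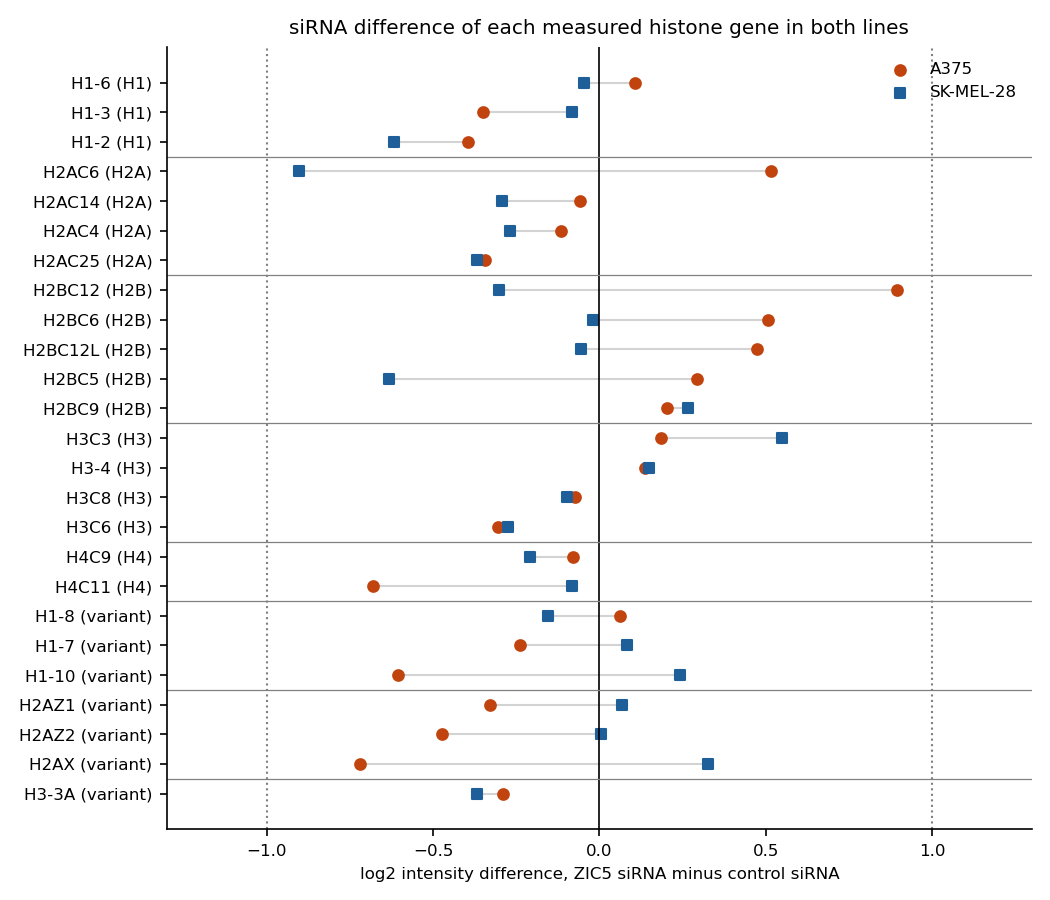
Log2 difference, ZIC5 siRNA minus control siRNA (x axis), of each of the 25 measured histone mRNAs (rows, by family), with circles for A375, squares for SK-MEL-28, a grey bar joining the lines and dotted lines at 2-fold. All points lie inside 2-fold. H2B genes are to the right in A375, and H2AC6, H2BC12, H2BC5, H2AX and H1-10 have the lines on opposite sides of 0.

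Set against each other, the classes took opposite order in the lines. In A375 the replication-dependent median was above the variant median by 0.35, and in SK-MEL-28 the same subtraction gave -0.22. Without H1-7 and H1-8 it was 0.50 and -0.22, and with members at a mean log2 of at least 7 only, 5 replication-dependent genes and 4 variants, it was 1.01 in A375. Without _x_at and _s_at probe sets, which left 14 genes, the A375 value was 0.19, and it was 0.25 with H2AX counted among the replication-dependent genes. With 1 array per group neither value has a test, and the difference between the lines was not tested. Across the 25 histone mRNAs, which are not independent replicates and partly share probes, the siRNA differences in one line set against the other gave r = -0.23 (Pearson) and rho = -0.16 (Spearman), where all genes gave 0.44 and 0.41. The sign was opposite in 12 of the 25, where 35.6% of all genes had opposite signs, while 10 were below 0 in both lines, against 32.5% of all genes, and 3 above 0 in both, against 31.5%.

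A limma fit over both lines, with the line as a block, asked whether any member differed with ZIC5 siRNA in the same way in each line. The lines are the only replication in it, and the labels do not say that samples came from separate cultures. Besides a variance shared over genes, its p-values rest on how far the siRNA differences of the lines lie apart, which may be technical. They do not rest on scatter between replicate arrays. A member whose difference varied between the lines had a larger SE, such as H2AC6 (0.39) and H2BC12 (0.34). The same quantity enters the limma line comparison below. At a Benjamini-Hochberg adjusted p under 0.05 limma called 0 of 27 members and 0% of all genes, and at an unadjusted p under 0.05 it gave 0 members, where 13.2% of all genes were under that value. H1-2 had the lowest limma adjusted p of any member, 0.379 (mean difference -0.51, SE 0.18, lower in 2 of 2 lines). The next were H3C3 (0.37, SE 0.16), H3-3A (-0.33, SE 0.15), H2AC25 (-0.36, SE 0.17) and H3C6 (-0.29, SE 0.15), each with the same sign in both lines. None passed, which does not show that they did not differ. On simulated arrays this fit recovered 0% of genes changed by 1 on the log2 scale in both lines.

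The lines themselves were then compared, as SK-MEL-28 minus A375. On the control siRNA arrays 3 of 27 members were at least 2-fold apart, where 22.2% of all genes were: 1 higher in SK-MEL-28, against 11.2% of all genes, and 2 lower, against 11%. H2AX had an intensity of 2246 in A375 and 406 in SK-MEL-28, a difference of -2.47 or 5.53-fold lower in SK-MEL-28. H2BC9 had 66.6 in A375 and 226 in SK-MEL-28, 3.39-fold higher, and H1-10 had 1242 and 574, a difference of -1.11. Next in size on the higher side were H2AC4 (0.74), the pseudogene H1-9P (0.67), H2BC6 (0.63), H4C11 (0.42) and H2BC12L (0.30). On the lower side they were H2AZ2 (-0.63), H2AC25 (-0.61), H3-3A (-0.45) and the pseudogene H2AC5P (-0.40). The dimmer probe set of H2AC25 gave -0.01, and the other 3 of H2AZ2 gave -0.45, 0.06 and -0.02. The highest H2AZ1 probe set differed by 0.09, and the median over members was 0.02.

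Over both transfections, with the siRNA as a block, limma called 3 of 27 line differences at an adjusted p under 0.05, where 27.7% of all genes were called: 2 members higher in SK-MEL-28, against 13.4%, and 1 lower, against 14.2%. H2BC9 was higher in SK-MEL-28 by 1.79 (SE 0.17, limma adjusted p = 0.00940, higher in 2 of 2 transfections). Its limma adjusted p lay between 0.00306 and 0.0135 over the alternatives that could measure it. The alternative without _x_at and _s_at probe sets could measure neither H2BC9, read from 1 _x_at probe set, nor H2AX. H2AX was lower by a difference of -1.94 (SE 0.31, limma adjusted p = 0.0232, 2 of 2). With probe sets averaged, the limma adjusted p of H2AX was 0.0608, within a range of 0.00848 to 0.0608 over the alternatives, and its dim probe sets had line differences of -0.23 and 0.19 on the control siRNA arrays. H2AC4, an H2A gene read at 32.6 (control siRNA) and 30.1 (ZIC5 siRNA) in A375 against 54.6 and 45.4 in SK-MEL-28, was higher by 0.67 (SE 0.14, limma adjusted p = 0.0415). Its limma adjusted p was 0.0623 without a level minimum, within a range of 0.0276 to 0.0623, and it was also above 0.05 without a variance trend. H1-10 was not called (-0.69, SE 0.27, limma adjusted p = 0.138).

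The line difference of several members was not the same on both pairs of arrays. With ZIC5 siRNA, H2AC6 had 109.6 in A375 and 35.7 in SK-MEL-28, a line difference of -1.62, where it was -0.20 with control siRNA. For H2BC12 the line difference was 0.18 on the control arrays and -1.01 on the ZIC5 siRNA arrays, and for H2BC5 they were -0.08 and -1.01 in its highest probe set, but 0.51 and 0.11 in its other probe set, which has nearly the same level. The lines lay closer together with ZIC5 siRNA for H2AX (-2.47 and -1.42) and H1-10 (-1.11 and -0.27). For H2BC9 the values were 1.76 and 1.83. These shifts are the differences between the siRNA contrasts of the lines seen from the other side, and an interaction could not be fitted with 4 arrays.

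**Figure D4:**
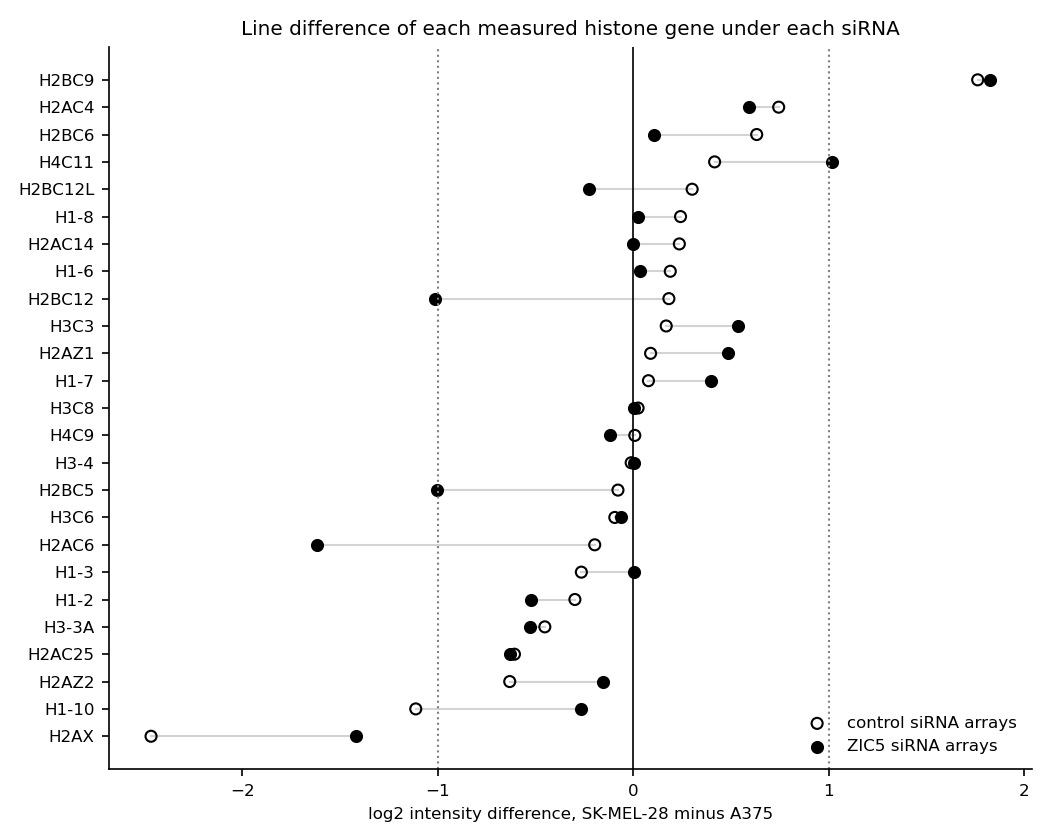
Log2 difference, SK-MEL-28 minus A375 (x axis), of each of the 25 measured histone mRNAs (rows, ordered by the control siRNA value), with open circles for the control siRNA arrays and filled circles for the ZIC5 siRNA arrays. H2AX is lowest on the control arrays at -2.47 and H2BC9 highest at 1.76, and H2AC6, H2BC12 and H2BC5 lie near 0 on the control arrays and at or below -1.01 on the ZIC5 siRNA arrays.

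Genes that make, process and place histones were read from lists drawn up with the members. In the list of histone mRNA processing and transcription, 25 of 27 genes were measured and 9 were above 0 in A375 (median -0.16) and 13 in SK-MEL-28 (median 0.02). SLBP, which binds the stem-loop of replication-dependent mRNAs, went from 2050 to 1904 in A375 (-0.11) and from 918 to 1263 in SK-MEL-28 (0.46). NPAT, which drives their transcription in S phase, differed by -0.31 and -0.25. The uridylyltransferase TUT7 was higher by 1.39 and 0.33, while cyclin CCNA2 differed by -1.69 and -0.22 and CDK2 by -1.25 and -0.42. The limma fit over both lines called 0 of the 25 at an adjusted p under 0.05, and 5 had an unadjusted p under 0.05, a value that 13.2% of all genes were under.

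Among 32 measured histone chaperones 10 were above 0 in A375, with a median of -0.22, and 18 in SK-MEL-28, with a median of 0.09. The H3-H4 chaperones ASF1A and ASF1B lay on opposite sides in A375, at 1.17 and -1.42, and at 0.39 and -0.17 in SK-MEL-28. UBN1 and UBN2, subunits of the HIRA complex that deposits H3.3, were higher by 1.50 and 1.27 in A375 and by 0.86 and 0.85 in SK-MEL-28. ANP32E, which removes H2A.Z from nucleosomes, differed by -1.06 and 0.28, and MCM2, a helicase subunit that also binds histones, by -1.01 and 0.46. The limma fit called 0 of the 32, and 4 had an unadjusted p under 0.05, against 13.2% of all genes. Of the histone family genes outside the rule, the centromere variant CENPA went from 398 to 173 in A375 (-1.20) and from 405 to 423 in SK-MEL-28 (0.06), MACROH2A1 differed by -0.23 and 0.03, and H2AJ by -0.07 and -0.37.

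In the list of S phase genes 24 of 24 measured were below 0 in A375, median -0.71, and 22 of 24 were above 0 in SK-MEL-28, median 0.35. In A375 the lowest was GINS1, a subunit of the replicative helicase (-2.01), followed by the clamp loader subunit RFC3 (-1.41), the licensing factor CDC6 (-1.28), thymidine kinase TK1 (-1.20) and the ribonucleotide reductase subunit RRM1 (-1.15). RRM2, the partner of RRM1, went from 4350 to 2918 in A375 (-0.58) and from 4088 to 8668 in SK-MEL-28 (1.08). The replication-dependent histones, whose transcription is known to follow S phase, had medians of 0.02 and -0.15 beside them, and the variants -0.33 and 0.07. The limma fit called 0 of the 24 S phase genes, with 1 at an unadjusted p under 0.05, against 13.2% of all genes. The part of S phase content in the histone values was not tested, and fewer cells in S phase and less RNA per cell cannot be told apart in these bulk samples.

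**Figure D5:**
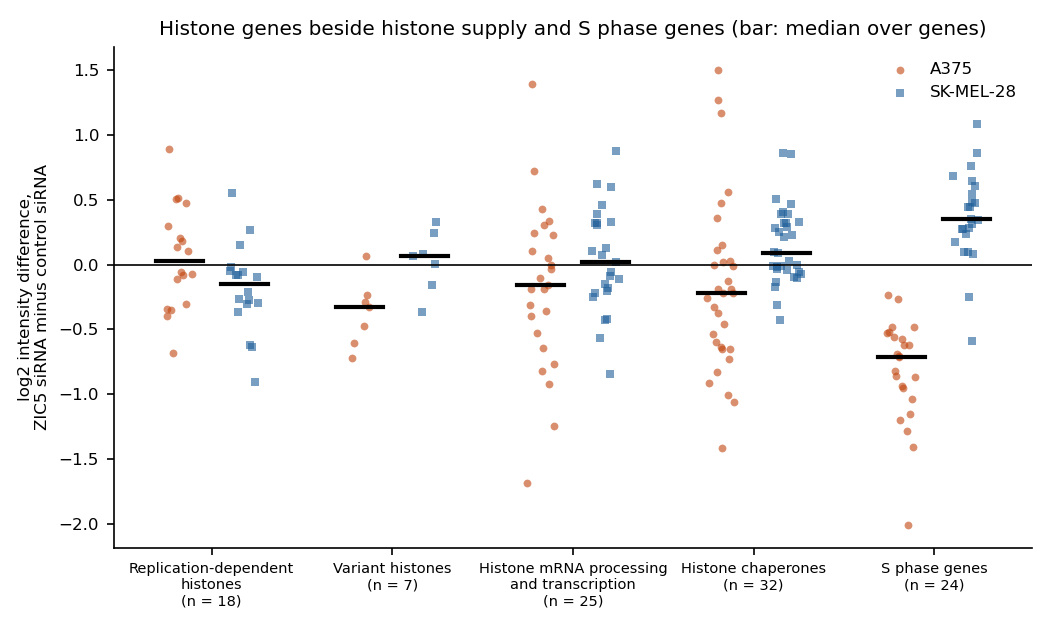
Log2 difference, ZIC5 siRNA minus control siRNA (y axis), of each gene of 5 groups, with circles for A375, squares for SK-MEL-28 and a black bar at the median over genes. The S phase genes lie below 0 in A375 and mostly above 0 in SK-MEL-28, while the medians of the replication-dependent histones are 0.02 and -0.15.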

How the data were processed

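RNA was labelled from 100 ng of total RNA, per the labels' protocols. The authors deposited a linear intensity for each probe set on each array. The submitters' processing notes name RMA and the Affymetrix Expression Console, and their versions are not stated there. Log2 was taken here. Of 54613 probe sets, 41091 name 1 gene in the platform annotation of 2016, and all 55 member symbols are in RefSeq GRCh38.p14. Within a line, genes were called by size (log2 difference of at least 1). Over 4 arrays limma 3.58.1 was used (R 4.3.3, eBayes with trend, Benjamini-Hochberg at 0.05 over 13794 genes), with 1 residual degree of freedom. On simulated arrays with 200 genes changed, the siRNA fit recovered 0% of these at a log2 change of 1 or 2 and 90.5% at 3. The number of arrays limits the precision.

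Members and gene lists were chosen with earlier results of these data known. Text names all variants, the 8 highest and 8 lowest members per line, the 6 greatest line differences each way, limma calls, members next to the minimum, and list genes past 2-fold (up to 6 a list; MCM10 was left out) with SLBP and NPAT. Others named (MACROH2A1, H2AJ, H4C8, H4C9, H2BC21, H3C8, and probe sets of several genes) were chosen after their values were seen. Alternatives were no minimum, a minimum of 7, values under 5 set to 5, averaged probe sets, no _x_at or _s_at probe sets, median centring, cyclic loess, other class limits, no variance trend and no block. Probe sets naming several genes entered only where stated.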

Additional observations from a re-analysis of the deposited data

Results flagged for a closer look

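For 5 histone genes the siRNA differences had opposite signs in the lines, each larger than the spread usual among probe sets of one gene (a median SD of 0.25 for A375 and 0.15 for SK-MEL-28), and with 1 array per group the difference between the lines was not tested. H2AC6 was higher by 0.52 in A375 and differed by -0.90 in SK-MEL-28, in its only probe set, of the _s_at kind. H2BC12 had 0.89 and -0.30, and H2BC5 had 0.29 and -0.63, where its other probe set had 0.28 and -0.12. The variants ran the other way round: in A375 H2AX had -0.72, against 0.33 in SK-MEL-28, and H1-10 had -0.60 and 0.24. The next brightest H2AX probe set had -0.82 and 0.37, but in SK-MEL-28 it read only 46.5 (control siRNA) and 59.9 (ZIC5 siRNA). The dimmer ones had 0.01 and 0.06 in A375 and, in the same order, -0.11 and 0.26 in SK-MEL-28.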

How the results depend on the processing

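All 27 measured members kept the sign of their A375 difference under each of the 7 scalings, filters and probe set choices that could measure them, and 25 of 27 did in SK-MEL-28 (all but H1-3 and H2AZ2, at -0.08 and 0.00). The count of members at 2-fold in A375 was 1 with probe sets averaged and 1 without _x_at and _s_at probe sets, H2AZ2 in both, and the count between the lines under control siRNA was 0 without those probe sets, where 16 members were left. The class difference in A375 was 1.01 at a minimum of 7, where 4 of the 5 replication-dependent genes were H2B genes. It was 0.68 with members at a mean log2 of at least 6, an alternative chosen after seeing the data. It was 0.19 without _x_at and _s_at probe sets, 0.25 with H2AX moved to the replication-dependent genes and 0.26 without H1-6 and H3-4. Limma called 1 member, H2AC4, between the lines without _x_at and _s_at probe sets, where H2BC9 and H2AX could not be measured. Without the line block the siRNA fit also called 0 genes. The labels give no replicate numbers, so arrays were paired by line, through the line block, and leaving out an array leaves no residual degree of freedom. The values of genes near the level minimum are limited by signal near the low end of the scale.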

Other observations

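Probe sets that name several histone genes are outside the rule for members and were read as a check of families. Of those naming H4 genes, the brightest, with 14 genes named, went from 3811 with control siRNA to 3429 with ZIC5 siRNA in A375. In SK-MEL-28 it went from 2880 to 2543, and the differences were -0.15 and -0.18. A dimmer one of the same 14 genes differed by -0.47 and -0.13. Both bright probe sets of the H2A gene pair H2AC18 and H2AC19 were lower in SK-MEL-28 than in A375 on the control siRNA arrays, by differences of -1.01 and -0.79. The third of that pair, with an intensity of 34.6 in A375 on that array, differed by 0.07.

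The pseudogene H1-9P went from 116 to 88.9 in A375 and from 184 to 216 in SK-MEL-28, siRNA differences of -0.39 and 0.23. Its line difference in the limma fit was 0.98 (SE 0.23, limma adjusted p = 0.0526), and it was called under 4 alternatives, with a range of 0.0314 to 0.0712. The pseudogene H2AC5P differed by -0.30 and 0.33 at intensities of 32.6 to 43.1. Of the 26 replication-dependent genes under the level minimum the median level was a log2 intensity of 3.86, which is an intensity of 14.5. H4C8 had the largest A375 difference among members under the minimum, 0.70 (1.02 in its dimmer probe set), and H2BC21 the most negative, -0.57.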
